A study of Mus musculus with 6 samples.

Results

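Dense clusters of open elements are 50 kb stretches of the genome in which many separate sites of open chromatin lie side by side. The intervals of 6 ATAC-seq peak lists were merged wherever they overlapped by at least 1 bp, which gave 191121 regions on chromosomes 1 to 19 of the mouse build mm10. A region was kept when both libraries of at least 1 condition had a peak in it, which left 102838. Fixed 50 kb bins were laid from position 0 of each chromosome, and the members were chosen by their number per bin: the regions whose midpoint fell in a bin with 12 or more kept regions. They were 2506 regions (2.44% of those kept) in 191 of the 31674 bins that held a kept region (0.603%), and these bins together span 9.55 Mb.

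ATAC-seq cuts accessible DNA with a transposase and reads out where it cut. The study profiled adipocytes grown for 7 days from the stromal vascular fraction (the cells of fat other than mature adipocytes) of wild-type male C57BL/6J mice aged 3 to 4 weeks, with 2 libraries per condition. Beige and white adipocytes came from inguinal subcutaneous fat, and brown adipocytes from brown fat. The beige and brown media began with insulin at 5 μg/ml, 5 μM dexamethasone, 0.5 mM IBMX, 1 nM T3 and 1 μM rosiglitazone, whereas the white medium held insulin at 5 μg/ml, 1 μM dexamethasone and 0.5 mM IBMX and neither T3 nor rosiglitazone. The insulin concentrations are those of the labels, and the study's methods give others, lower in each and unequal between beige and white. So beige and white cultures differed in medium, beige and brown cultures in tissue of origin, and white and brown cultures in both. The study's methods do not describe the brown libraries, so whether they differed from the inguinal libraries in other ways is not known. With 2 libraries against 2, the smallest p an exact two-sided permutation test allows is 0.333, so no difference between conditions was tested. Values are given for every library, and a bin's counts are called separated when both libraries of a condition lie above both of the other.

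The lists held 109143 to 127490 peaks, and read depth was not analysed here. All 11 adipocyte marker genes looked at had a promoter peak in each library. Of the markers of other cells that such cultures may hold, 2 or 3 of 10 macrophage genes, 6 or 7 of 10 endothelial genes, 1 or 2 of 6 skeletal muscle genes and 5 or 6 of 7 adipose progenitor genes had one. The counts differed by at most 1 gene between libraries, and no marker of these other cells started in a dense bin. In such bulk cultures, fewer cells with an open site and a less open site per cell cannot be told apart.

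Enhancers are short stretches of DNA that bind transcription factors and raise transcription of a gene at some distance. They often lie in groups around genes that define a cell's identity or that answer quickly to signals, and such groups are called super-enhancers when marks such as acetylated histones or Mediator are dense over them. Open chromatin alone does not define a super-enhancer, and groups of open sites also form where many promoters are crowded, as in the Hox, histone and tRNA gene clusters.

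The sequences of 10 members are shown as examples, and a member's pattern can differ from its bin's, as at Lif and Ckb. They are from the plus strand of the RefSeq GRCm38 genome, which has mm10 coordinates, and each lies within 100 bases of the member's summit, cut short at the member's end or at an annotated untranslated region. In the first 8, capitals mark matches to the motifs searched. The first is the Fabp4 promoter, chr3:10208577-10208707, open in all 6 libraries, with an AP-1 match. The next, chr17:56111134-56111334, lies upstream of Plin4 and was open in every beige and brown library and in no white library. It holds a match to the PPAR DR1 motif, the element bound by the target of rosiglitazone. The part of rosiglitazone in the pattern of this 1 site was not tested. Matches were in 0.772% of members away from promoters and in 0.726% of other such regions.
Fabp4 promoter: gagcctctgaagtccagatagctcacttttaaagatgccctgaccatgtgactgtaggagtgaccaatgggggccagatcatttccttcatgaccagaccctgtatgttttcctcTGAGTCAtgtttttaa
Plin4 upstream: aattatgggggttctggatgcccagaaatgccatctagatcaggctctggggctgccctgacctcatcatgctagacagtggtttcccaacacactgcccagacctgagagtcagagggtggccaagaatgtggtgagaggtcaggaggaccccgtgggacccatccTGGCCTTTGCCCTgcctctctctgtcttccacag

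Of the 3 that follow, the site 7531 bp downstream of the Hoxc8 start, in an intron of a Hoxc5 transcript, chr15:102998038-102998238, with C/EBP and RUNX matches, and the site in an intron of Thra, the neighbour of Nr1d1, chr11:98754353-98754553, with a match to the glucocorticoid response element (GRE), were open in both beige libraries and in no other. The site at the Hoxb7 promoter, chr11:96285842-96286042, has a match to each of the ETS forms searched and was open in both beige libraries and in white library 2.
Hoxc8 downstream: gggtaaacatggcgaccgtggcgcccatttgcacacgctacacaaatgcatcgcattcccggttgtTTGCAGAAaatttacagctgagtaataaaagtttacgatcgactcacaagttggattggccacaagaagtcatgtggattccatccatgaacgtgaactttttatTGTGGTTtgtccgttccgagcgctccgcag
Hoxb7 promoter: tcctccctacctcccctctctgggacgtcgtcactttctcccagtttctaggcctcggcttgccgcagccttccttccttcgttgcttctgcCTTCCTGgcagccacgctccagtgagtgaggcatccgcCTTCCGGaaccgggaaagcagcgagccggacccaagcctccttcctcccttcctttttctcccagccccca
Nr1d1 bin, Thra intron: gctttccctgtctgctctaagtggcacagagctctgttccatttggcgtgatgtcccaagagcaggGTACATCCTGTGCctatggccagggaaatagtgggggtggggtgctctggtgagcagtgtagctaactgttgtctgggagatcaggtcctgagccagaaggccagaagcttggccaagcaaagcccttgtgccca

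Next come a site in an intron of Lif, chr11:4262079-4262279, open in both beige libraries and brown library 1, with AP-1 and ETS matches; a site between genes near Ckb, chr12:111663811-111663996, open in both white libraries alone, with ETS and C/EBP matches; and a site upstream of Fosb, chr7:19327232-19327432, open in all 6, with EBF, AP-1, GC box and C/EBP matches.
Lif intron: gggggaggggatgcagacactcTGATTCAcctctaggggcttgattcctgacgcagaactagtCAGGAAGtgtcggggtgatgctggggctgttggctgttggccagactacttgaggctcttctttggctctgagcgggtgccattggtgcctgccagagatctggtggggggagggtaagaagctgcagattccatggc
Ckb intergenic: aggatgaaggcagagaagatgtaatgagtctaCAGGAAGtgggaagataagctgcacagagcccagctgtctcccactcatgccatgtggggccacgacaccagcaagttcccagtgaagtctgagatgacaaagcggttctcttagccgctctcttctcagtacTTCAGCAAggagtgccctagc
Fosb upstream: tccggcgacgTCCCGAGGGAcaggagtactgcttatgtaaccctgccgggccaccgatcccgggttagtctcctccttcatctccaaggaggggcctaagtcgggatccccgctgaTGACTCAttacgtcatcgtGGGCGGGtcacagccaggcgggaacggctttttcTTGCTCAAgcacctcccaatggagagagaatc

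In the last 2, capitals do not mark motifs. The site at the Hoxa2 promoter, chr6:52165039-52165238, was open in both brown libraries and in no other, and matched none of the motifs. The other, chr13:23401038-23401198, was open in both beige libraries and in no other, and its capitals mark a tRNA gene for valine on the minus strand, within which a GC box match lies.
Hoxa2 promoter: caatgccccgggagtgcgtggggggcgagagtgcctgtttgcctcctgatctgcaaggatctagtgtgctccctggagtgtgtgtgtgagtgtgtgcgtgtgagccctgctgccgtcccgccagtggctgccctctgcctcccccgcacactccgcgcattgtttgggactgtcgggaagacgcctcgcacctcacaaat
Abt1 bin, tRNA gene: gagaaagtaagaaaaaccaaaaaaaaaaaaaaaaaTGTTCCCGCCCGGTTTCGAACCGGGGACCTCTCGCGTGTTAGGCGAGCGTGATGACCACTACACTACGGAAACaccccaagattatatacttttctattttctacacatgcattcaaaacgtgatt

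A dense bin held a median of 13 members and at most 28, against a median of 3 kept regions over all bins. The number of bins showed no gap at the limit of 12: 141 bins held 11 kept regions, just outside, and 85 held 12, just inside. Bins on both sides of the limit had much the same values. Regions in bins with 11 had a median of 10 with a peak in each beige library and 9 in each white and brown library, and 20.6% lay at a promoter, while regions in bins with 12 had 11, 10 and 10, and 20.9% at a promoter. Neighbouring members of a bin lay a median of 2380 bp apart, centre to centre, and members covered a median of 12.2% of their bin (range 7.80% to 28.4%). The gap between neighbours was 100 bp or less in 355 of 2315 cases (15.3%), and when intervals that close were merged, 76 dense bins with 973 members were left.

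**Figure D1:**
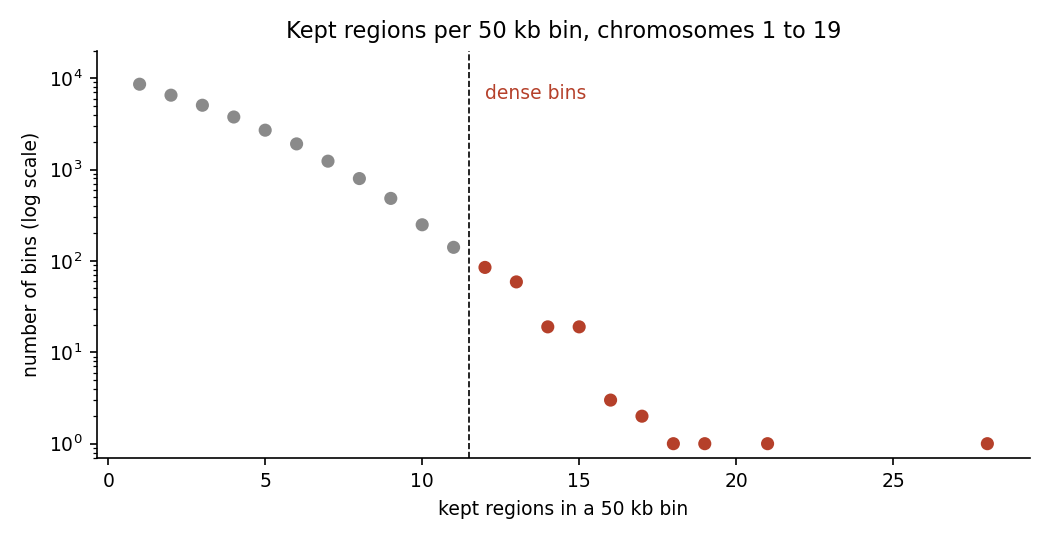
Number of 50 kb bins (log scale) by the number of kept regions they held, over chromosomes 1 to 19. The red points right of the dashed line are the dense bins; the counts fall from 141 bins with 11 kept regions to 85 with 12, and the bin with 28 lies in Sfi1.

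Members were small and were often promoters. A region counted as a promoter when its summit, the position with the highest −log10 q, lay within 1 kb of the start of a protein-coding transcript. Of the members, 562 (22.4%) were promoters, 4.51% lay in other exons, 38.4% in introns and 34.6% between genes, and 16.4% of the other kept regions were promoters and 42.5% lay between genes. The median width was 388 bp for members and 425 bp for the others. MACS2, the peak caller, gives each peak a fold enrichment over the background of its own library. By the percentile of this fold in its library, the median member lay between 35.6 and 48.5 in the 6 libraries, and the median of the other regions between 60.7 and 63.8. The highest −log10 q of a region had a median of 25.9 in members and 21.2 in the others, so members ranked lower by fold and higher by q.

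In all 191 bins the member with the highest −log10 q had a peak in all 6 libraries, and it was a promoter in 88. Over all members, 1528 (61.0%) had a peak in all 6 libraries, compared with 55.9% of the other regions. A dense bin held a median of 8 such members (range 3 to 17). The bin at chr17:34600001-34650000, with Rnf5 and Atf6b among its genes, was the only dense bin with every member, 12, open in every library. The median best −log10 q rose with the number of libraries that had a peak, from 7.77 for the 165 members found in 2 libraries to 45.3 for the 1528 found in 6. Members called in few libraries, which include those that differed between conditions, were thus the weakest, and the part of the peak caller's limit in the differences below was not tested.

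The dense bins held the starts of 381 of 20720 protein-coding genes (1.84%), a mean of 2.00 per bin against 0.612 over all bins with a kept region. The bins were of different kinds. No coding gene started in 31 of them and 1 gene in 71, so that 102 (53.4%) held at most 1, while 4 or more genes started in 35. No member was a promoter in 37 bins, and over 50% of the members were promoters in 19. Most bins stood alone: 169 had no dense neighbour, 8 pairs were adjacent, and there were 2 runs of 3. The run at chr11:69000001-69150000 held 40 members around Aurkb, a mitotic kinase, Per1, a clock gene, and Hes7, a factor of the segmentation clock. Atf6b, Rnf5, Aurkb and Hes7 were named after their values were seen. Chromosome 11 held the most dense bins (28, with 5.64% of its kept regions), chromosome 19 followed by share (12 bins, 5.22%), and chromosome 16 had the fewest (2 bins, 0.728%).

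Members were open more often in beige than in white or brown adipocytes, and so were the other regions. Of the members, 90.9% and 94.0% had a peak in the beige libraries, 81.2% and 82.9% in the white, and 84.0% and 79.6% in the brown. The means were 92.5% ± 2.2 (SD, n = 2), 82.1% ± 1.19 and 81.8% ± 3.05, against 89.3% ± 2.07, 80.8% ± 0.639 and 79.5% ± 3.81 for the regions outside dense bins. The beige libraries lay above the others in both sets, while white and brown overlapped. At promoters the 2 sets differed. Promoter members had a peak in 95.4% ± 1.51 of cases in beige, 85.1% ± 1.13 in white and 84.3% ± 2.26 in brown, whereas promoters elsewhere had 96.3% ± 0.884, 93.0% ± 1.22 and 90.9% ± 1.56. White and brown libraries therefore missed more of the promoter peaks in dense bins than elsewhere, and their ranges in the 2 sets did not overlap. The promoter peaks called in dense bins were also weaker. Their median fold percentile lay between 39.6 and 58.3 in the 6 libraries, and that of other promoters between 78.5 and 85.8. The part of peak strength in the promoter difference was not tested. Peaks of these same libraries chose the members, so the shares with a peak are descriptions and support nothing beyond the members.

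Counting regions with a peak in both libraries of a condition and in neither of another, 213 members (8.50%) were open in beige and not in white, where all kept regions had 8.31%, and 69 (2.75%) the reverse, where all had 3.68%. Likewise 229 members (9.14%) were open in beige and not in brown, with 8.87% of all kept regions, and 40 (1.6%) in brown and not in beige, with 2.9%. Between the remaining pair, 104 (4.15%) were open in brown and not in white, with 5.46% of all, and 127 (5.07%) in white and not in brown, with 6.45%. The shares in favour of beige were near the background, and the other 4 were below it. The 213 members open in beige and not in white were spread over 120 of the 191 bins. Among promoter members, which were the weaker promoters by fold, 6.23% were open in beige and not in white, compared with 2.84% of the promoters outside dense bins. Among members away from promoters the shares were 9.16% and 9.37%. Counting all 3 conditions, 96 members (3.83%) were open in both beige libraries and no other, with 3.59% of the regions outside dense bins. For white alone there were 48 (1.92%, with 2.28% outside), for brown alone 21 (0.838%, with 1.66%), and for beige and brown but not white 59 (2.35%, with 2.33%).

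By bin, the number of members with a peak was higher in both beige libraries than in both white libraries in 91 of 191 dense bins (47.6%). Over all bins the share was 19.1%, but bins with more regions separate more easily, and in bins with 6 to 11 kept regions it was 35.9%. White lay above beige in 6 dense bins (3.14%, with 6.32% of all bins and 6.37% of those with 6 to 11). Beige lay above brown in 102 (53.4%, with 20.5% of all bins and 36.2% of those with 6 to 11), and brown above beige in 10 (5.24%, with 5.16% and 4.58%). Brown lay above white in 30 (15.7%, with 10.4% of all and 14.7% of those with 6 to 11). White lay above brown in 32 (16.8%, with 12.4% and 16.6%). Both shares were near those of bins with 6 to 11, and the 2 numbers were near each other. That balance rests on single libraries: without brown library 2, brown lay above white in 153 bins and below it in 41, and without white library 1 in 34 and 210. For the members as chosen from all 6 libraries, the same omissions gave 61 and 40, and 47 and 62. With the members fixed, leaving out a library can only raise such counts or leave them the same. The median dense bin had 1.5 more members with a peak in beige than in white, and the largest difference was 6.5. The beige lists were on average the longest. When each list was cut to the peaks with the highest −log10 q, as many as the shortest list holds, beige still lay above white in 67 of 157 dense bins and below it in 7, and above brown in 69 and below it in 11. With a white library left out, the other white library keeps regions alone by construction. Without white library 1 the order turned round, with beige above white in 94 of 358 dense bins and below it in 128. Without white library 2 the 2 directions came near each other, with beige above white in 126 and below it in 111. For the members as chosen from all 6 libraries, leaving out any 1 library gave 91 to 117 bins with beige above white and 6 to 19 with white above beige. These counts could not fall below those of the full data, so they do not show whether the order depends on 1 library.

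**Figure D2:**
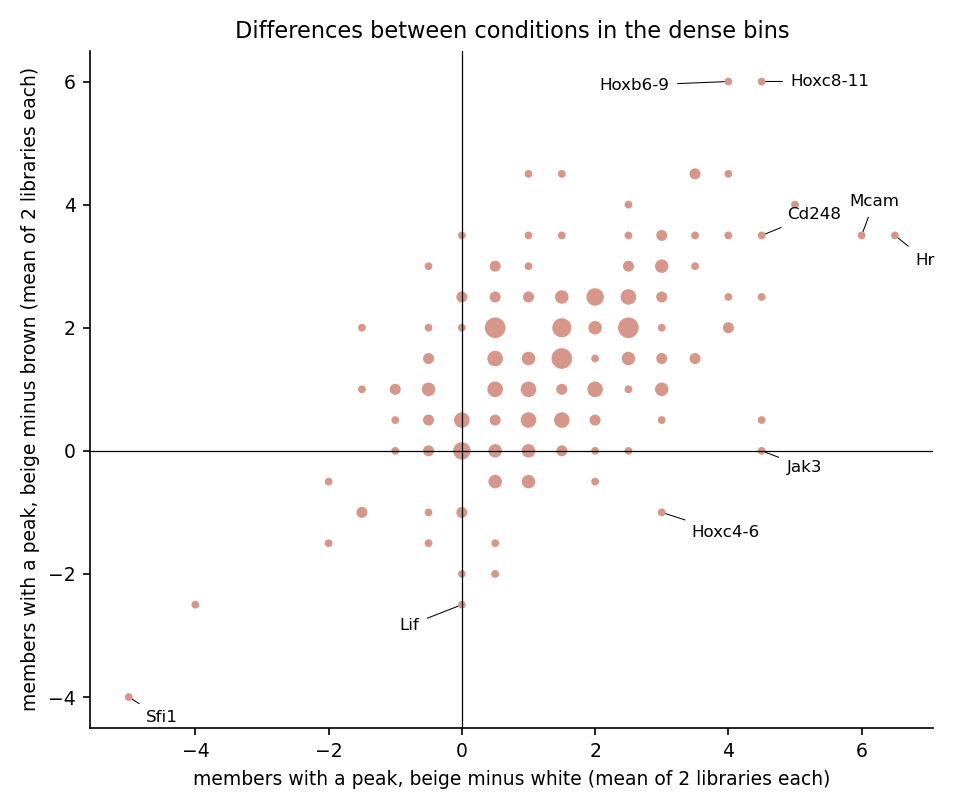
Each point is a dense bin or several with the same values (area in proportion to their number): the mean number of members with a peak in the 2 beige libraries minus that in the 2 white (x axis) and in the 2 brown libraries (y axis). Most points lie above and to the right of 0; Hr and Mcam lead along the x axis with 6.5 and 6.0 members, the Hoxb6-9 and Hoxc8-11 bins along the y axis with 6.0, and the Sfi1 bin lies far to the lower left.

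Hox genes encode the transcription factors that give cells their position along the body axis, and fat depots keep distinct Hox patterns. Of 39 Hox genes, 24 started in dense bins, in 6 bins with 88 members. The Hoxb9, Hoxb8, Hoxb7 and Hoxb6 bin, chr11:96250001-96300000, held 19 members, of which 19 and 18 had a peak in beige, 13 and 16 in white, and 12 and 13 in brown. Beige was separate from both others, by 6.0 members on average against brown. Most of the gap lay around Hoxb7. The 5 members whose nearest start is Hoxb7 all had a peak in both beige libraries, and white library 1 had none of them. The site 457 bp upstream of the Hoxb7 start had −log10 q values of 7.69 and 12 in beige and no peak in the other 4 libraries.

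The Hoxc11, Hoxc10, Hoxc9 and Hoxc8 bin, chr15:102950001-103000000, showed the same order. All 14 members had a peak in both beige libraries, 10 and 9 in white, and 7 and 9 in brown. The site shown above downstream of Hoxc8 reached −log10 q of 11.9 and 13.6 in beige and was absent elsewhere, and another, 3293 bp upstream of the Hoxc8 start, had 8.05 and 9.58 in beige alone. The next bin along the chromosome, chr15:103000001-103050000, with Hoxc6, Hoxc5 and Hoxc4, had a different order: of 15 members, 10 and 13 had a peak in beige, 8 and 9 in white and 14 and 11 in brown. There brown and beige overlapped, and both lay above white. A pair of sites within Hoxc5 had peaks in both brown libraries and in no other, with −log10 q of 5.24 and 5.51 at the first and 7.00 and 1.65 at the second.

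In the Hoxa cluster, the bin with Hoxa5, Hoxa7, Hoxa9, Hoxa10 and Hoxa11, chr6:52200001-52250000, held 15 members, of which 12 were promoters, the most of any dense bin. Of these 15, 13 and 15 had a peak in beige, 14 and 14 in white and 12 and 11 in brown. Beige and white overlapped, and brown lay below both. The Hoxa2 promoter site shown above had −log10 q of 18.3 and 9.26 in brown and no peak in the inguinal cultures. Taking the 2 Hoxc bins as a whole, 87.9% ± 7.31 of 29 members had a peak in beige, 62.1% ± 0 in white and 70.7% ± 2.44 in brown, and for the 2 Hoxb bins, with 32 members, the shares were 98.4% ± 2.21, 76.6% ± 6.63 and 71.9% ± 4.42.

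**Figure D3:**
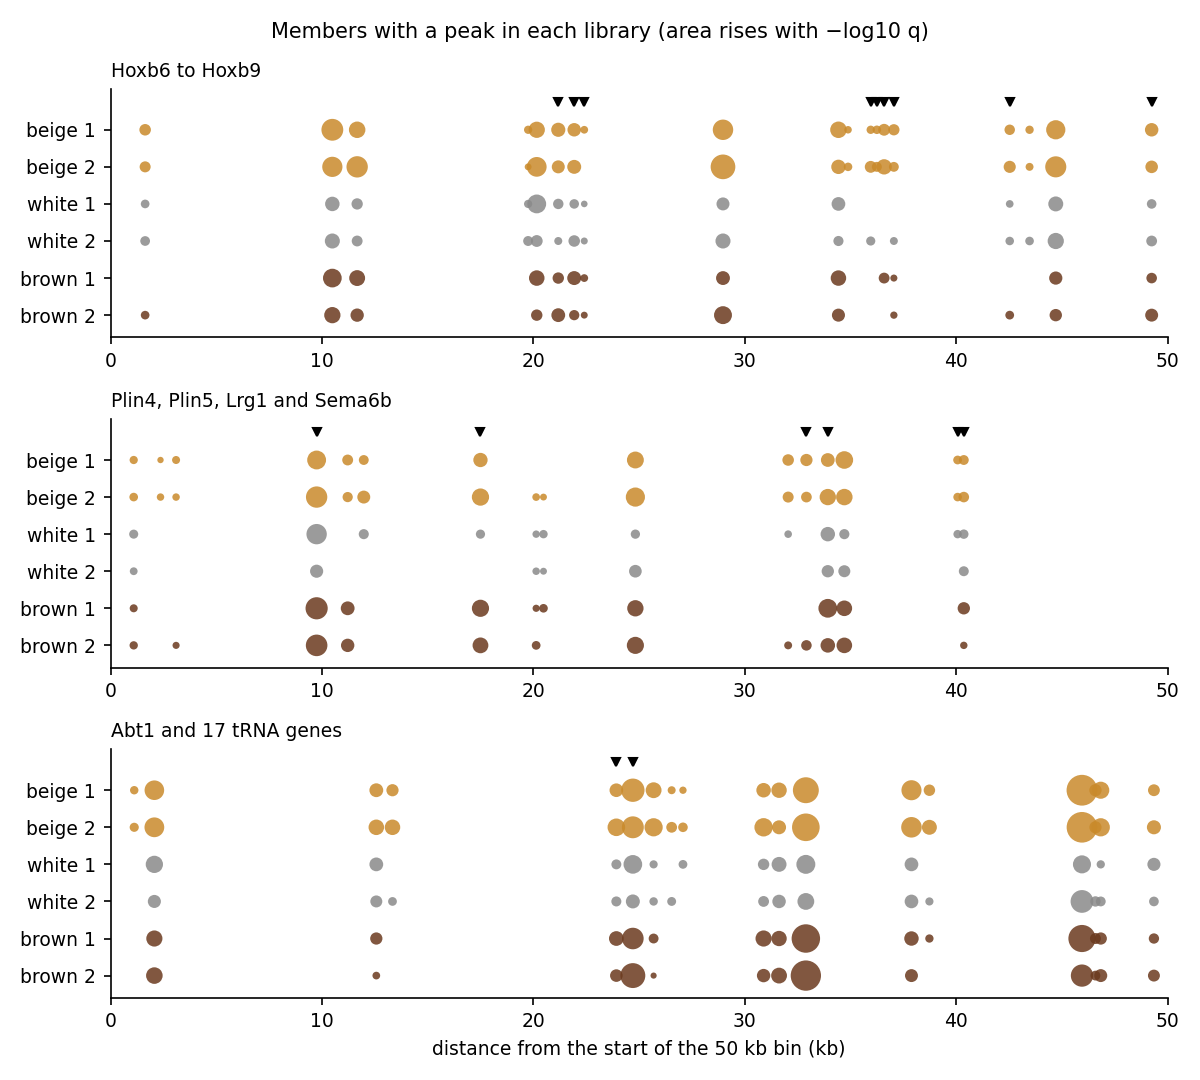
Members of 3 dense bins by the distance of their midpoint from the bin's start (x axis, kb) and by library (rows); a circle is a peak, its area grows with −log10 q, and triangles mark promoter members. The promoter members around 36 kb in the Hoxb bin appear in the beige rows with few or no circles in the white and brown rows, and large circles run through all 6 rows in each bin.

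Transfer RNA and histone genes made up another group. tRNA genes are short, present in many near-identical copies and read by RNA polymerase III from sequences inside the gene. Of 386 tRNA genes, 97 lay in 15 dense bins, and 75 members (2.99%) overlapped a tRNA gene, as did 143 of the other kept regions (0.143%). All 75 had a peak in both beige libraries, 60 and 63 had one in white and 62 and 59 in brown, and 52 had one in all 6. The white and brown counts were near the shares of all members, 81.2% and 82.9% in white and 84.0% and 79.6% in brown. In beige, 90.9% and 94.0% of all members had a peak. The Abt1 bin, chr13:23400001-23450000, named for a nucleolar protein gene, held 17 tRNA genes and 18 members, 12 of which overlapped one. Its 18 members all had a peak in both beige libraries, 13 and 16 in white and 14 and 13 in brown. The Zfp184 bin, chr13:21900001-21950000, with 15 tRNA genes, had 13 and 13 of 13 members open in beige, 11 and 8 in white and 8 and 9 in brown. In both of these bins beige was separate from white and from brown. Reads that map to several near-identical copies cannot be assigned to one of them, and how the peak calls treated such reads is not given in the sources used here.

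The bin of replication-dependent histone genes, chr13:23500001-23550000, with Hist1h4h, Hist1h2af, Hist1h3g, Hist1h2bh and Hist1h3f and 13 tRNA genes, was second by size, with 21 members. Of these, 20 and 21 had a peak in beige, 18 and 18 in white and 20 and 18 in brown. Beige lay above white and overlapped brown. Histone genes, 10 of 64, started in 2 dense bins.

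Among genes of the fat cell itself, dense bins held a small part of each list. Of 34 lipid and adipocyte genes, Plin4, Plin2, Fabp4 and Agpat2 (11.8%) were in dense bins, as were Nfia of 22 adipogenic transcription factors (4.55%) and Ckb of 25 thermogenic genes (4.00%), beside 1.84% of all coding genes. The shares with Nfia and Ckb rest on 1 gene each. The 1.84% also counts genes without a promoter peak, whereas 30 to 33 of the 34 lipid and adipocyte genes had one in each library. Listed genes and all coding genes were thus unlike, here and for the lists below, and their shares were not tested. Perilipins coat lipid droplets. The bin with Plin4, Plin5, Lrg1 and Sema6b, chr17:56100001-56150000, held 16 members, with 14 and 16 open in beige, 12 and 8 in white and 10 and 12 in brown, and beige lay above both others. The Plin5 promoter had −log10 q of 29.3 and 44.7 in beige, 44.3 and 36.8 in brown and 9.65 in white library 1, and no peak in white library 2. The site 1431 bp upstream of Plin4, with the PPAR DR1 match shown above, had 15.2 and 12.9 in beige, 27.0 and 25.2 in brown and no peak in white. The Plin4 promoter was called in all 6 libraries, with values between 24.1 and 76.6.

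The Plin2 bin, chr4:86650001-86700000, holds the perilipin found in most cells that store lipid. Of its 14 members, 13 and 12 were open in beige, 11 and 11 in white and 12 and 12 in brown, a narrow order in which only beige and white were separate, along with brown and white. In the Fabp4 bin, chr3:10200001-10250000, named for the fatty acid carrier that marks adipocytes, 12 and 10 of 12 members were open in beige, 10 and 10 in white and 10 and 10 in brown, and no pair of conditions was separate. Its promoter, with the AP-1 match shown above, had −log10 q of 51.2 and 95 in beige, 52.0 and 28.6 in white and 63.7 and 50.3 in brown. Agpat2 makes the phosphatidic acid needed for triglyceride, and its bin, chr2:26600001-26650000, had 12 and 13 of 13 members open in beige, 9 and 10 in white and 10 and 9 in brown. The members that white lacked there included a site in an intron next to Fam69b, with −log10 q of 4.65 and 4.97 in beige alone.

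Ckb, the creatine kinase of the futile creatine cycle in thermogenic fat, lies in a bin at chr12:111650001-111700000 with 15 members. Peaks were called at 12 and 14 of them in beige, 12 and 12 in white and 13 and 11 in brown, so all conditions overlapped. The Ckb site shown above was open in white alone, with −log10 q of 7.13 and 6.52. Nfia, a factor that takes part in the brown fat programme, had 12 and 13 of 13 members open in beige, 11 and 11 in white and 12 and 12 in brown. For all 13 the nearest coding start was that of Nfia, 2 were promoters, and the strongest, 5291 bp upstream of the nearest start, had values of 69.0 to 166 in the 6 libraries. Of 21 depot patterning genes, those in dense bins were Hoxa5, Hoxc8, Hoxc9 and Hoxc10.

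Several bins held genes tied to the daily clock, for which no list was made. Nr1d1, the repressor REV-ERBα of the clock, shares the bin chr11:98750001-98800000 with Msl1, part of a histone acetyltransferase complex. Of its 17 members, 16 and 16 were open in beige, 13 and 14 in white and 13 and 11 in brown, and beige lay above both. Beige alone had the site with the GRE match, with −log10 q of 8.69 and 5.99. Nr1d1's promoter was called in all 6, at 74.9 and 137 in beige, 39.7 and 25.4 in white and 123 and 120 in brown. The bin of Dbp, a clock output factor, with Sphk2, Rpl18 and Sult2b1 at chr7:45700001-45750000, had 15 and 14 of 15 members open in beige, 10 and 13 in white and 11 and 12 in brown. Cirbp, a cold-induced RNA-binding protein, shares chr10:80150001-80200000 with Efna2, an ephrin, and of its 17 members 13 and 14 were open in beige, 14 and 16 in white and 15 and 14 in brown, where beige overlapped both. Per1 starts in 2 adjacent dense bins. In the larger, with 15 members, 15 and 15 were open in beige, 13 and 14 in white and 13 and 12 in brown, and in the smaller, with 13, 11 and 12, 11 and 12, and 11 and 12.

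Of 22 immediate early genes, whose transcription rises within minutes of a signal, 5 were in dense bins (22.7%, beside 1.84% of all coding genes). They were Fosb, Junb, Ier2, Zfp36 and Dusp1. Fosb is a subunit of AP-1, and its bin with the repair gene Ercc1, chr7:19300001-19350000, had 16 and 16 of 16 members open in beige, 13 and 15 in white and 15 and 15 in brown. Strong sites filled it: the one 10033 bp upstream of Fosb had −log10 q of 211 and 225 in beige, 103 and 66.5 in white and 246 and 247 in brown. Junb's bin was called nearly in full everywhere, with 13 and 13 of 13 members in beige, 13 and 11 in white and 13 and 13 in brown. The Zfp36 bin, named for an mRNA decay factor, was much alike, with 13 and 13, 12 and 11, and 13 and 12 of 13. Ier2 had 11 and 13, 11 and 12, and 10 and 8 of 13. Dusp1, a phosphatase of MAP kinases and one of the glucocorticoid targets listed, had 11 and 11, 9 and 10, and 11 and 8 of 12. Per1 and Dusp1 were the genes in dense bins out of 18 glucocorticoid targets (11.1%). The beige and brown media held more dexamethasone than the white, and its part in these counts was not tested.

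Other large bins held genes of the cytoskeleton and matrix. Sh3pxd2a, a scaffold of podosomes, had 16 and 16 of 16 members open in beige, 11 and 16 in white and 14 and 13 in brown, with white library 1 low and white library 2 full. The bin of Phlda3, a target of p53, and Tnni1, a troponin, had 15 and 15 of 15 in beige, 13 and 13 in white and 13 and 12 in brown, and beige lay above both. Gsn, which severs actin, had 12 and 15 of 15 in beige, 13 and 12 in white and 12 and 12 in brown, and Htra3, a secreted protease, had 13 and 13, 12 and 12, and 13 and 13 of 15. Gsn showed no separate pair, and Htra3 separated white from the others by 1 member.

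The difference between beige and white was largest in the bins of Hr, of Mcam and, described above, of Plin4. The bin of Hr, a corepressor of nuclear receptors, and Nudt18, chr14:70550001-70600000, had 13 and 13 of 13 members open in beige, 5 and 8 in white and 11 and 8 in brown. Beige was separate from white by 6.5 members. The 4 members open in both beige libraries and neither white library ran from 1489 bp upstream of Hr to 6011 bp downstream of the Nudt18 start, and the strong Nudt18 promoter was called in all 6 with −log10 q between 56.5 and 160. The bin of Mfrp, C1qtnf5, Rnf26 and Mcam, chr9:44100001-44150000, Mcam being an adhesion molecule of pericytes and endothelium, had 13 and 14 of 14 open in beige, 8 and 7 in white and 10 and 10 in brown. An intronic site 2259 bp downstream of the C1qtnf5 start had −log10 q of 20.7 and 26.2 in beige and no peak elsewhere.

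The bin of Gdf15, a secreted stress hormone, chr8:70600001-70650000, had 15 and 15 of 15 members open in beige, 10 and 11 in white and 14 and 15 in brown, so beige and brown, which shared their medium, both lay above white. The site 470 bp downstream of the Gdf15 start had 4.42 and 12.4 in beige, 5.85 and 7.41 in brown and no peak in white. Cd248, a surface protein of stromal cells, lies with Rin1 and Yif1a in chr19:5050001-5100000, where 15 and 15 of 15 members were open in beige, 9 and 12 in white and 12 and 11 in brown. Jak3, a cytokine receptor kinase, shares chr8:71650001-71700000 with Unc13a and Insl3. Of its 12 members, 11 and 11 were open in beige, 6 and 7 in white and 10 and 12 in brown. The 4 sites with no peak in either white library all lay within Unc13a. One of them, 6057 bp downstream of its start, had −log10 q of 22 and 15.9 in beige and 20.3 and 9.61 in brown. Adam19's bin, chr11:46050001-46100000, a protease gene, had 11 and 13 of 14 in beige, 10 and 8 in white and 12 and 11 in brown.

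Some bins were fuller in brown than in beige. The Lif bin, chr11:4250001-4300000, named for a cytokine of the IL-6 family, had 10 and 10 of 13 members open in beige, 10 and 10 in white and 13 and 12 in brown. The Lif promoter had −log10 q of 47.9 and 41.3 in beige, 32.0 and 13.5 in white and 43.2 and 40.1 in brown, and the gap came from weaker sites, such as the one 29923 bp downstream that was called in brown alone at 1.62 and 4.82. A bin with no coding gene start but with the microRNA genes Mir193a and Mir365-2, chr11:79700001-79750000, had 12 members, with 10 and 10 open in beige, 10 and 10 in white and 12 and 12 in brown. The nearest coding start there is that of Rab11fip4, and white and brown were separate as well.

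White lay above brown by most in bins that included matrix and steroid-handling genes. Cyp1b1 oxidises steroids and foreign compounds, and its bin, chr17:79700001-79750000, had 10 and 11 of 13 members open in beige, 13 and 11 in white and 9 and 8 in brown. A site 333 bp downstream of the Cyp1b1 start was called in white alone at −log10 q of 4.91 and 6.04. Hsd11b2, which inactivates glucocorticoids, had 10 and 12 of 12 in beige, 11 and 12 in white and 9 and 7 in brown. Col6a1, a collagen VI chain, had 11 and 9 of 12 in beige, 10 and 10 in white and 7 and 6 in brown. Smug1, a DNA glycosylase gene, lies in the bin chr15:103150001-103200000, past the end of the Hoxc cluster, which had 12 and 13 of 13 in beige, 11 and 11 in white and 8 and 8 in brown. The bin of Grn, the progranulin gene, and Slc25a39, chr11:102400001-102450000, had 15 and 15 of 15 in beige, 13 and 15 in white and 12 and 9 in brown. Of 38 annotated matrix and cytoskeleton genes, Col1a1, Col5a1, Col6a1 and Ahnak were in dense bins (10.5%, beside 1.84% of all coding genes). Col1a1 had 13 and 13 of 13 in beige, 13 and 12 in white and 11 and 11 in brown, with 10 of the 13 members upstream of the gene and away from its promoter. Col5a1 had 12 and 12, 12 and 13, and 11 and 11 of 14. Of 31 growth factor and inhibitor genes, Ccl2 (3.23%), a chemokine that draws monocytes, was in a dense bin. Its bin had 12 and 12 of 13 open in beige, 13 and 11 in white and 12 and 11 in brown. None of the 37 chromatin and transcription hub genes listed was in a dense bin.

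White exceeded beige in 6 dense bins, and those with the largest differences lay in Sfi1, a gene of the centrosome. The larger Sfi1 bin, chr11:3150001-3200000, with 28 members the fullest of all, had 19 and 24 with a peak in beige, 26 and 27 in white and 25 and 26 in brown. In the other, chr11:3100001-3150000, of 15 members 10 and 12 had a peak in beige, 15 and 15 in white and 13 and 14 in brown. The 43 members of this pair stood apart from the rest by their fold enrichment. Its median percentile within each library's list lay between 0.133 and 0.609, against 36.3 to 49.2 for the other members, although their −log10 q values, such as 28.7 and 30.4 in beige and 38.0 and 39.6 in white at a site 29106 bp inside the gene, were well above the limit. Annotated repeats took a median of 11.4% of the sequence around their summits, and 0% around those of other members. The part of repeats in these values was not tested. No stretches of the genome prone to false signal were left out here, and whether these peaks mark open chromatin was not tested. Without these 2 bins, white exceeded beige in 4 dense bins and brown exceeded beige in 8. Mcl1, an anti-apoptotic protein, with Adamtsl4, in chr3:95650001-95700000, came next, with 11 and 10 of 13 open in beige, 13 and 12 in white and 12 and 12 in brown. Ahnak, a scaffold protein, with Eef1g, had 10 and 10 of 12 in beige, 11 and 12 in white and 11 and 11 in brown, and a bin near Csrp1, chr1:135650001-135700000, had 10 and 10, 12 and 11, and 10 and 8 of 12.

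**Figure D4:**
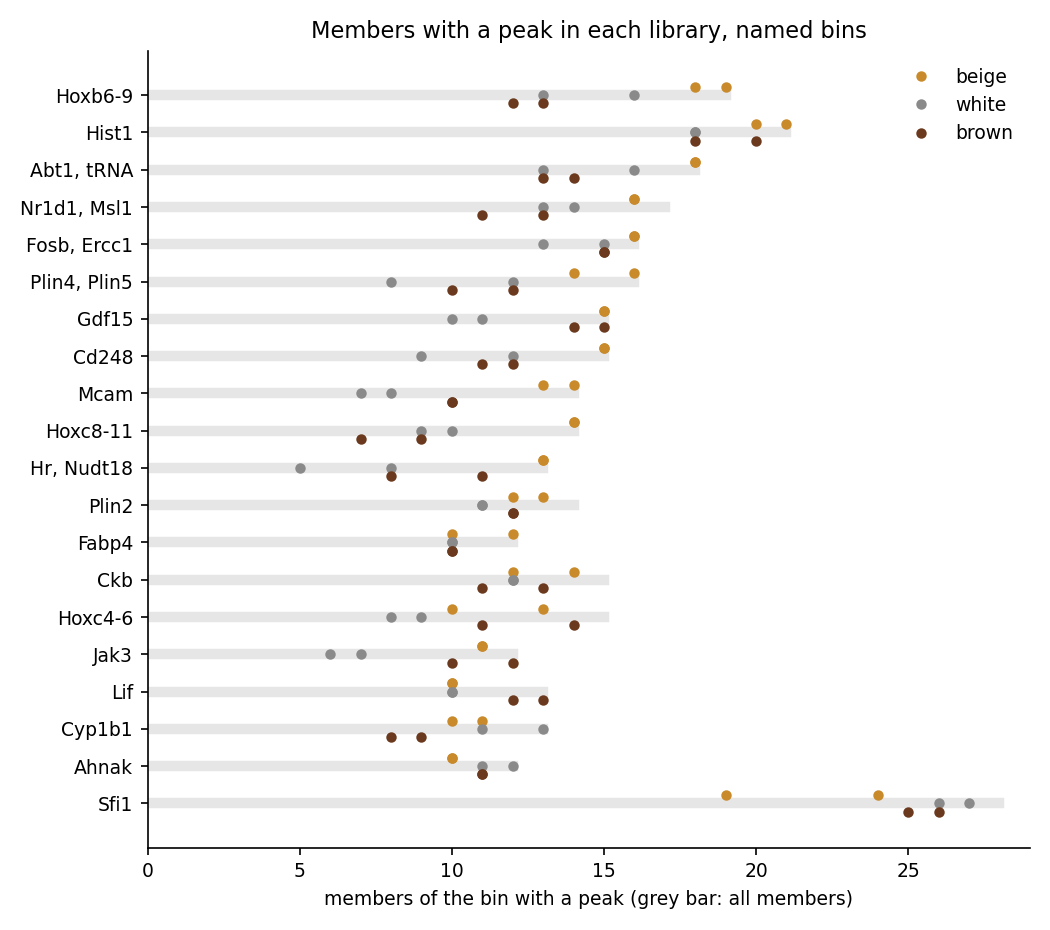
Members with a peak in each library (points; equal values overlap) in 20 of the bins described, with all members of the bin as a grey line from 0. The beige points sit at or near the end of the line in the Hoxb, Hoxc8-11, Abt1, Gdf15, Cd248, Mcam and Hr bins, with the white points at 5 and 8 in Hr, and the order is turned round in Sfi1.

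Bins without a coding gene start made up a group of 31 with 396 members, of which 90.4% ± 2.14 had a peak in beige, 80.9% ± 1.96 in white and 79.9% ± 4.11 in brown. Beside the smaller Sfi1 bin, those with 15 members were a bin within Emilin2 and the bin of Malat1 and Neat1. The first, chr17:71250001-71300000, in a matrix glycoprotein gene, had 13 and 13 of 15 open in beige, 10 and 10 in white and 11 and 12 in brown. The second, chr19:5800001-5850000, with its abundant nuclear long noncoding RNAs, had 14 and 14 of 15 in beige, 12 and 14 in white and 12 and 13 in brown. A bin in Parva, an adaptor of focal adhesions, chr7:112450001-112500000, had 13 and 14 of 14, 10 and 11, and 13 and 12. The bin of Mir21a at the end of Vmp1, chr11:86550001-86600000, had 11 and 12 of 14 in beige, 11 and 12 in white and 9 and 9 in brown. Mir21a is a microRNA common in fat and stroma, and brown lay below both others there. Bins far from any coding start lay 76374 bp from Hif1a, 83457 bp from Irs2, 165923 bp from Klf14 and 81015 bp from Irf2bp2, measured from the bin's centre. The Irs2 bin, near a gene of the insulin signalling pathway, had 12 and 12 of 13 open in beige, 9 and 11 in white and 13 and 12 in brown, and white lay below both. The Klf14 bin, near a regulator linked to fat distribution, had 12 and 13, 10 and 9, and 11 and 9 of 13. A bin inside Fmnl2, an actin regulator, had 13 and 13, 9 and 11, and 9 and 10 of 13, and the Irf2bp2 and Hif1a bins had 12 and 12, 9 and 12, and 10 and 9 of 13 and 11 and 11, 12 and 11, and 12 and 9 of 14. Which gene such a bin acts on was not tested.

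In the 35 bins with 4 or more coding starts, 95.9% ± 1.35 of 472 members had a peak in beige, 82.9% ± 2.55 in white and 82.6% ± 1.80 in brown. The beige libraries of this group, at 94.9% and 96.8%, lay above those of the bins with no coding start, at 88.9% and 91.9%, while the white and brown libraries of the groups overlapped.

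**Figure D5:**
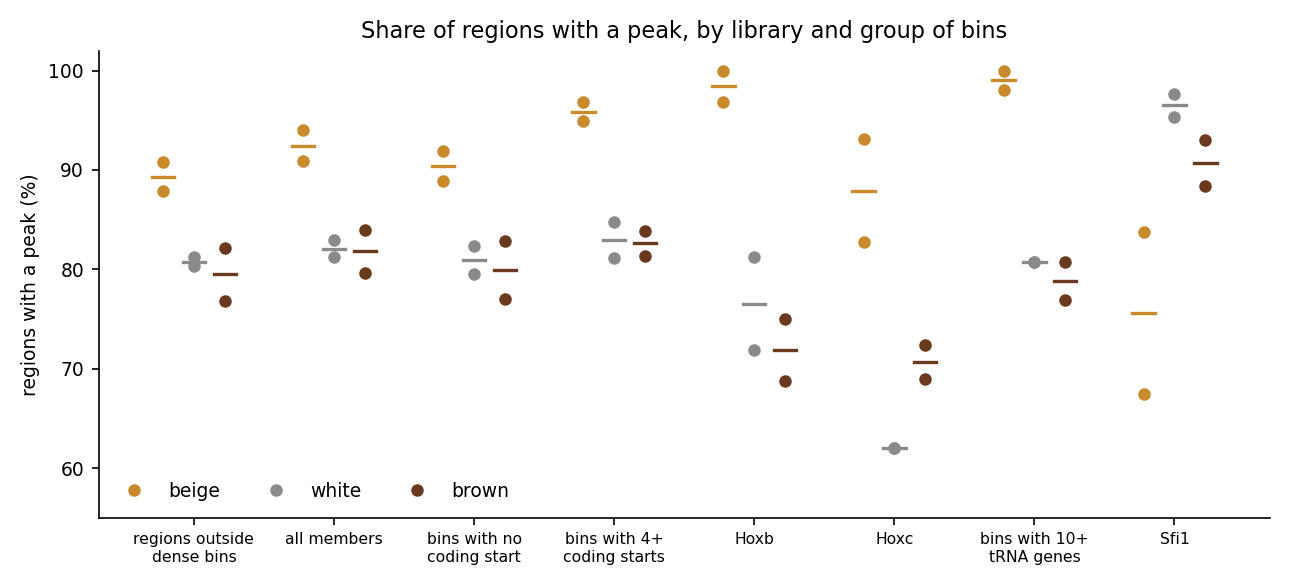
Percent of regions with a peak in each library (points) and the mean of the 2 libraries (lines), for regions outside dense bins, all members and 6 groups of dense bins (Hoxb and Hoxc are the 2 bins each with genes of that cluster). The y axis starts at 55%. Beige lies highest in every group but the Sfi1 pair of bins, where its mean of 75.6% is the lowest.

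The DNA of members was richer in G and C. In windows of 100 bases to each side of the summit, members away from promoters had a median of 53.2% G and C, and other regions away from promoters 49.3%, while promoter members had 62.2% and other promoters 64.7%. Motif matches were counted on both strands in these windows, members and other regions away from promoters apart from promoters, and no test was made. The AP-1 motif TGANTCA was in 23.4% of members away from promoters (95% exact binomial interval 21.5% to 25.3%, counting error only) and in 29.5% of the other such regions. The C/EBP motif TTGCNNAA was in 11.4% and 15.6%, and the RUNX motif TGTGGTT in 4.22% and 6.09%. The GC box GGGCGGG was in 8.85% of members and 3.82% of others, and the ETS form CCGGAAG in 3.14% and 1.54%. The other ETS form, CAGGAAG, was in 11.4% and 10.4%, and the TEAD motif ACATTCC in 5.20% and 5.26%. Of the motifs given by name alone, the shares were CTCF 5.4% and 6.22%, EBF 1.85% and 1.73%, GRE 0.977% and 0.752%, PPAR DR1 0.772% and 0.726%, and NFI 0.103% and 0.0846%. NFY, AGCCAAT, was in 2.88% and 3.26%, and CRE, TGACGTCA, in 0.926% and 0.589%. G and C content moved with these shares, and its part in them was not tested. At promoters, AP-1 was in 8.36% of members and 6.2% of others, CCGGAAG in 8.01% and 12.2%, and the GC box in 32.2% and 36.9%.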

How the data were processed

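ATAC-seq peak lists of 2 beige, 2 white and 2 brown adipocyte libraries were used. Per the methods and the submitters' processing notes, the authors trimmed adaptors with Trimmomatic, aligned reads to mm10 with BWA, and called peaks in each library with MACS2 at q under 0.05. The study's reporting summary gives the versions of these tools, with default parameters, for the inguinal libraries. How reads with several places in the genome were treated for peaks is not given in the sources used here. The deposited lists give each peak's fold enrichment over the local background and its −log10 q, both within the library. The peak lists hold no read depth. The reporting summary lists reads for the beige and white libraries, with more mapped reads in both white than in both beige libraries, and these were not used here. Intervals are exact binomial (95%) and cover counting error only.

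Lists were merged, binned and annotated with Python 3.11.15, numpy 2.4.6, pandas 2.3.3 and scipy 1.17.1, and figures drawn with matplotlib 3.10.9. A region belonged to the bin of its midpoint, and its −log10 q and fold in a library were those of its highest peak there. Gene starts, exons and introns came from GENCODE vM21, and tRNA genes, repeats (lower-case bases) and sequences from the RefSeq annotation and genome of GRCm38. The counting was tested on simulated peaks. The reporting summary gives 2 biological replicates per group for ATAC-seq, and it lists the inguinal libraries but not the brown. The methods do not describe the brown libraries either.

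The members and gene lists were chosen with earlier results of these data known. Genes were named if they started in the 15 fullest bins, in the 5 bins with the largest difference in each direction among those with separate counts, or, for the listed genes, in any dense bin, and the 10 fullest bins without a coding start were added. Alternatives changed the q limit, list length, merging distance, bin position and limit, bin assignment and promoter size, or left out a library. No comparison between conditions was tested. Some results that the naming rule would include are not reported here.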

Additional observations from a re-analysis of the deposited data

How the results depend on the processing

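Of 172 values recomputed under alternatives other than leaving out a library, 46 moved. The shares with a peak by condition counted as moved when they changed by more than the spread between libraries. Counts had to change by over 1.5 times. All other shares counted as moved when they left the exact binomial interval of the main value, which covers counting error only. Those shares were not judged against the spread between libraries. No value moved with q under 0.01, with regions counted in every bin they overlapped, or without the 2 Sfi1 bins, which was added after seeing the data. Separate counts are given below in the order beige above white, white above beige, brown above beige, beige above brown, brown above white and white above brown. At 10 or more regions per bin there were 581 dense bins with 6547 members, 20.8% of them promoters, and 248, 27, 23, 266, 100 and 96 bins with separate counts. At 15 or more there were 28 bins with 453 members, 25.8% promoters, 3.97% open in white and not brown, and 15, 2, 2, 16, 4 and 4. At −log10 q over 5 there were 99 bins with 1292 members, 25.2% promoters, 4.18% open in white and not brown, and 53, 2, 4, 55, 12 and 11. With intervals up to 100 bp apart merged there were 76 bins with 973 members, 18.7% promoters, 64.4% open in all 6 libraries, 85% with a peak in white, 6.78% open in beige and not white, 7.09% in beige and not brown, and 28, 35, 8 and 11 bins with beige above white, beige above brown, brown above white and white above brown. With bins from 25 kb, promoters were 20.6%, members open in brown and not white 5.46%, and bins with brown above beige 5. With equally long lists, 3.51% were open in white and not beige and 2.29% in brown and not beige. With promoters of 3 kb to each side, 34.4% of members were promoters. Beige above white and beige above brown were the most frequent directions in each of these.

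Leaving out each library in turn gave 279 to 466 dense bins and 3665 to 6235 members, because the other library of the condition then keeps regions alone. Promoters were 20.1% to 22.3% of members and those open in every library left 52.0% to 58.4%. A peak was present in 82.9% to 94.5% in beige, 71.2% to 84.9% in white and 71.2% to 85.1% in brown. Open in beige and not white were 7.61% to 19.1%, in white and not beige 2.59% to 11.3%, in brown and not beige 1.56% to 6.74%, in beige and not brown 7.42% to 20.0%, in brown and not white 4.22% to 10.8%, and in white and not brown 4.33% to 15.8%. Bins with separate counts were 94 to 405, 7 to 128, 4 to 83, 104 to 411, 34 to 153 and 41 to 210. For members as chosen from all 6 libraries, an alternative added after seeing the data, they were 91 to 117, 6 to 19, 10 to 21, 102 to 135, 30 to 61 and 32 to 62. With the members fixed, leaving out a library cannot lower these counts, so their lower ends are the main values. No paired analysis was made, because no test was run and the labels do not say whether libraries shared animals or cell preparations.

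Peak lists hold no read counts, so openness below the limit of detection is not measured. Medium, tissue and culture differ as the groups do and cannot be told apart where 2 of them differ. Bins of fixed position cut through gene clusters such as Hox, so counts per bin depend on where the cut falls.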
